A study of Mus musculus with 9 samples.

Results

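The genes described here are 8 mouse genes known for their transcription in the two-cell embryo and in the rare embryonic stem cells that resemble it: Zscan4c, Zscan4d, Zscan4f, Tdpoz3, Tdpoz4, Tcstv1, Tcstv3 and Zfp352. They were chosen by name, with it known that Tdpoz3 was higher with the first of 2 hairpins against Apela, and each was read from every probe set that the platform annotation gives that gene symbol alone. By this rule 3 of the 8 had values, Tdpoz3, Tcstv3 and Zfp352, with 1 probe set each, out of 19938 genes with such a probe set. Another 4 genes, Zscan4c, Zscan4d, Zscan4f and Tdpoz4, occurred only on probe sets assigned to several genes, and Tcstv1 on none under its own symbol.

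The data are 9 Affymetrix arrays of total RNA from the mouse embryonic stem cell line R1E, grown in serum with leukemia inhibitory factor, which keeps such cells undifferentiated. All cells had been transduced with a lentivirus carrying a short hairpin RNA, and the labels state no drug treatment. The groups are shApela_1 (hairpin 1 against Apela, 3 arrays), shApela_2 (hairpin 2 against Apela, 3 arrays) and shLuc (a hairpin against luciferase, the control, 3 arrays). No untransduced cells are among them, and no label tells if the 3 repeats came from separate cultures. The p-values therefore cover the spread among these arrays alone, and that spread may be technical. As a check of the hairpins, Apela was lower in both hairpin groups, at 9.70 ± 0.06 in shApela_1, 9.72 ± 0.14 in shApela_2 and 11.30 ± 0.10 in shLuc (-1.60 and -1.58 against shLuc, limma adjusted p = 0.000238 and 0.000265). Of the 9 arrays the third of shApela_2 stood apart, with a median level of 7.12 and an interquartile range of 3.29, while the other arrays had medians from 7.03 to 7.07 and interquartile ranges from 3.50 to 3.59.

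A few cells of a mouse embryonic stem cell culture pass at any time through a transient state that resembles the two-cell embryo, in which genes of zygotic genome activation are switched on. The transcription factor Dux is known to open this programme, and chromatin repressors keep it closed in most cells. Zscan4 genes encode proteins with a SCAN domain and zinc fingers and are known for telomere maintenance in mouse embryonic stem cells. Tdpoz genes encode proteins with TRAF and POZ domains that are expressed in oocytes and early embryos, Tcstv genes belong to a group of transcripts that vary among two-cell embryos, and Zfp352 encodes a zinc finger protein of early embryos. In RNA of a whole culture, fewer cells in such a state and less RNA per cell cannot be told apart.

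The sequences shown here are the 250 bases before the annotated start from RefSeq, assembly GRCm38.p6. They are read 5′ to 3′ on the gene's strand, and such a sequence was at hand for 5 of the 8 members. Zscan4c and Zscan4f are shown as members of 1 family that the array reads only on shared probe sets, Zfp352 as a member with its own values, and Tdpoz1, which is no member, because no upstream sequence of Tdpoz3 was used here. Capitals mark the letters TATAA and the run ACACACCTTTAATCC.
Zscan4c, chr7:11005495-11005744, plus strand: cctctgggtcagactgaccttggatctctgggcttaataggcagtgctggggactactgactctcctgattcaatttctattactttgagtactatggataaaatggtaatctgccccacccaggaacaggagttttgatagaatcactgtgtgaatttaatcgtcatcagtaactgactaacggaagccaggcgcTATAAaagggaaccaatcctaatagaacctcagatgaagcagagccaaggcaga
Zscan4f, chr7:11397665-11397914, plus strand: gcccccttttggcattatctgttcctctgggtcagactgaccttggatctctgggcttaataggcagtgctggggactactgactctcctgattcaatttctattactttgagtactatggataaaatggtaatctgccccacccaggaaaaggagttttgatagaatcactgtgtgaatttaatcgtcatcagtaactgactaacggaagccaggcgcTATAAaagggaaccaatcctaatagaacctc
Zfp352, chr4:90218570-90218819, plus strand: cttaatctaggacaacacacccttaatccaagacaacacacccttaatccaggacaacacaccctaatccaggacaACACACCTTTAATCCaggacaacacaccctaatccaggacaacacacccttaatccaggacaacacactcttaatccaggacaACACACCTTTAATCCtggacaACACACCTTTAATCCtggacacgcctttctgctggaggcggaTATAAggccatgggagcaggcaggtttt
Tdpoz1, chr3:93676284-93676533, minus strand: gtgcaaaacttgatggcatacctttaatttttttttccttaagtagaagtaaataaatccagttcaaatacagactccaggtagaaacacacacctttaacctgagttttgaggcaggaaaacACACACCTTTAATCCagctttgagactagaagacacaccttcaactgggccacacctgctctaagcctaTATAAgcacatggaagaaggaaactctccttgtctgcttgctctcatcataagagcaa

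Aligned with free ends, the Zscan4c window was identical to that of Zscan4f at 99.6% of 227 aligned bases and to that of Zscan4d at 97.1% of 239. The letters TATAA occur once in each of the 4 windows shown, as they do somewhere in 22.8% of the 32851 RefSeq windows of this length, counting both strands. The run ACACACCTTTAATCC is the longest that occurs at least 2 times upstream of Zfp352 and also upstream of Tdpoz1, and it was sought after the data were seen. It occurs 3 times upstream of Zfp352 and once upstream of Tdpoz1, and on either strand in 14 of all windows (0.0426%), 1 for each of 14 genes. Tdpoz1 and Zfp352 are among them because they defined the run, and so are Tdpoz8 and Tdpoz9, whose windows match that of Tdpoz1 at 92.1% of 215 and 100% of 222 aligned bases. The window of Tdpoz4, a member not shown, held neither the run nor TATAA. Those of Tdpoz5, Tdpoz7 and another start of Tdpoz8 also lacked the run. Whether any factor binds the run was not tested.

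Tdpoz3 was the 1 member whose shApela_1 arrays all lay above the shLuc arrays. Its log2 expression was 10.31, 9.97 and 9.87 in shApela_1, 9.39, 8.82 and 8.34 in shApela_2, and 9.19, 9.01 and 8.91 in shLuc. The shApela_1 arrays stood above all others without overlap, whereas shApela_2 spread over both sides of shLuc. Group means were 10.05 ± 0.23 (SD, n = 3) in shApela_1, 8.85 ± 0.52 in shApela_2 and 9.04 ± 0.14 in shLuc. The difference of 1.02 between shApela_1 and shLuc on the log2 scale is 2.02-fold. It helped choose this gene and is given without a test.

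Tdpoz3 was not shown to change with shApela_2. The shApela_2 arrays were not used to choose it, though the shLuc arrays were. The difference from shLuc was -0.19 (SE 0.23, 95% interval from -0.72 to 0.34, limma adjusted p = 0.786 over all probe sets). The third shApela_2 array had the lowest Tdpoz3 value of the 9, and without it the difference was 0.07 (adjusted p = 0.968). Between the hairpins, every shApela_2 array lay below every shApela_1 array, with a mean difference of -1.20 that is likewise given without a test, since the shApela_1 arrays chose the gene.

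Zfp352 followed the array number more than the hairpin in 2 of the 3 groups. Its log2 expression was 7.55, 7.69 and 8.27 in shApela_1, 7.69 on each array of shApela_2, and 7.55, 7.67 and 8.14 in shLuc. The third arrays of shApela_1 and shLuc were the highest of all 9 and lay apart from their groups, and the third shApela_2 array did not. The third array exceeded the mean of the first 2 by 0.65 in shApela_1 and by 0.53 in shLuc, and only 0.133% and 0.574% of all probe sets with 1 symbol moved by more, in either direction, in those groups. In shApela_2 the same value was 0.00. The shApela_1 mean was 7.84 ± 0.38 and the shLuc mean 7.79 ± 0.31, a difference of 0.05 with overlapping groups. For shApela_2, at 7.69 ± 0.00, the difference from shLuc was -0.10 (SE 0.20, 95% interval from -0.54 to 0.35, limma adjusted p = 0.874), and it was 0.08 without the third shLuc array (adjusted p = 0.892).

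Tcstv3 was dim and nearly flat. Its log2 expression was 5.74, 5.74 and 5.82 in shApela_1, 5.75, 5.69 and 5.70 in shApela_2, and 5.74, 5.74 and 5.68 in shLuc, and 4 of the 9 arrays held exactly the same value. All 9 values lay within 0.14 of each other and the groups overlapped. The mean level stood at the 28.8th percentile of the probe sets in the table, below the median level of 7.06, while Tdpoz3 and Zfp352 lay above that median. The shApela_2 difference was -0.00 (SE 0.04, 95% interval from -0.10 to 0.09, limma adjusted p = 0.978), and the shApela_1 difference was 0.05.

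**Figure D1:**
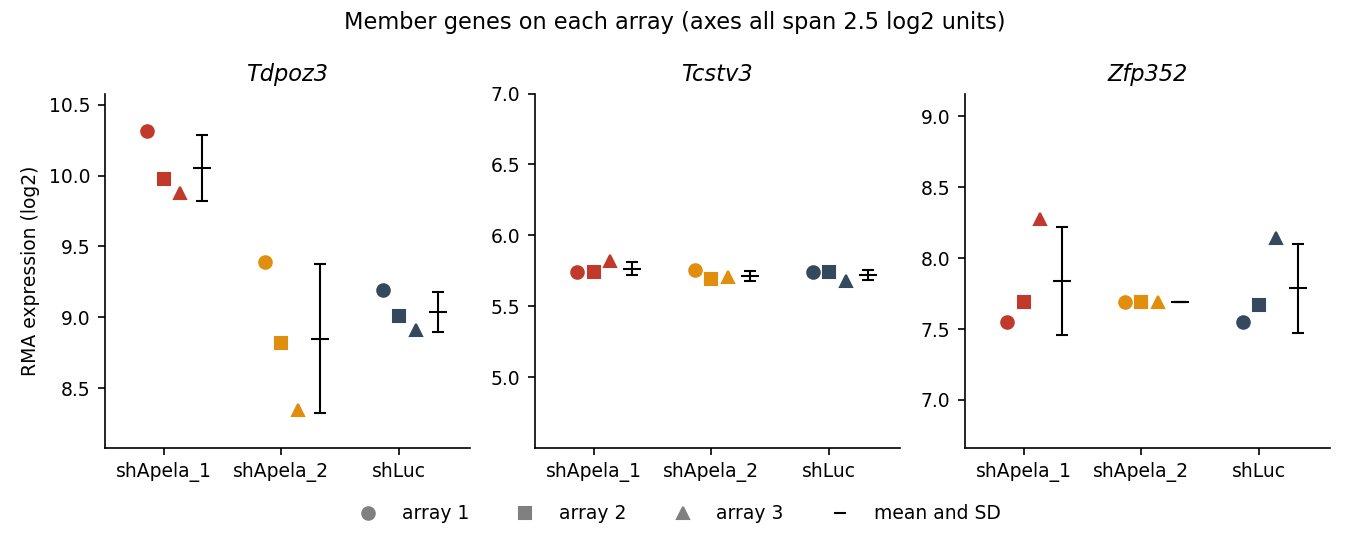
RMA expression (log2, vertical axis) of Tdpoz3, Tcstv3 and Zfp352 on each array of shApela_1, shApela_2 and shLuc, with symbols for array number and bars for the mean and SD of 3 arrays. Tdpoz3 stands higher on all 3 shApela_1 arrays, and Zfp352 is highest on the third arrays of shApela_1 and shLuc.

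Of the 3 members, 0 passed limma's test with shApela_2, where 0.0138% of all 21775 probe sets passed. At an unadjusted p under 0.05 were 0 of the 3, beside 5.9% of all probe sets. Groups did not overlap for 0 of the 3 in that comparison, beside 10.4% of all probe sets (5.52% higher, 4.9% lower). Their median difference was -0.10, against 0.01 over all probe sets. All 3 lay below their shLuc means, where 56.3% of all probe sets lay above. With shApela_1 the median was 0.05, against 0.005 over all probe sets, with 3 of 3 above shLuc, beside 53.8% of all probe sets. The middle value is that of Zfp352, which turned to -0.16 without the third shApela_1 array and to -0.07 or -0.00 without the first or the second shLuc array. The groups did not overlap for 1 of the 3, Tdpoz3, where 13.5% of all probe sets did not overlap in that comparison (7.88% higher, 5.64% lower), and nothing is read from this count because the comparison chose the member. The other comparison, shApela_2 against shApela_1, also left 1 of the 3 without overlap, again Tdpoz3, beside 17.3% of all probe sets (7.28% higher, 10% lower).

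The other Tdpoz probe sets leaned the same way as Tdpoz3 with shApela_1. The annotation gives 10 probe sets to Tdpoz genes and no others, of which 8 held distinct values; 5 of the 8 carry 1 symbol and 3 are shared by several Tdpoz genes, so those cannot be assigned to any 1 of them. Apart from Tdpoz3 itself, all 7 were higher in shApela_1 than in shLuc on average, from 0.05 to 0.45 with a median of 0.35. Groups did not overlap for 4 of the 7, namely the 3 shared probe sets and 1 of Tdpoz2. The share over all probe sets with 1 symbol was 7.88% in the higher direction, and shared probe sets are not part of it. This comparison is also the one that chose Tdpoz3. With shApela_2 the same 7 ranged from -0.18 to 0.03 with a median of -0.03. Of the 7, 0 were free of overlap with shLuc, beside 10.4% of all probe sets with 1 symbol in either direction. These genes have similar sequences, so that their probe sets are not independent of each other, and how far a probe set picks up RNA of another Tdpoz gene was not tested.

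Within the Tdpoz family the size differed by probe set. On the probe set that holds Tdpoz4 together with another Tdpoz gene, values were 6.48, 6.29 and 7.02 in shApela_1, 6.08, 6.08 and 5.78 in shApela_2, and 6.06, 6.19 and 6.19 in shLuc. The shApela_1 arrays again lay above all others, by 0.45 over shLuc on average. Tdpoz2 had 1 probe set at 7.60, 7.53 and 7.81 in shApela_1, 7.28, 7.20 and 7.05 in shApela_2 and 7.16, 7.29 and 7.44 in shLuc. Its difference of 0.35 did not pass the test over all probe sets (limma adjusted p = 0.27), and a second Tdpoz2 probe set differed by 0.05 only. Tdpoz1 differed by 0.13 and Tdpoz8 by 0.14 with overlapping groups, and neither is among the members.

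The Zscan4 signal was strong and showed no such shift. The annotation assigns 3 probe sets to 5 Zscan4 genes at once, so their values belong to the family and to no single member. The first of the 3 measured 12.01, 11.96 and 12.08 in shApela_1, 12.20, 12.08 and 12.02 in shApela_2, and 12.26, 12.08 and 12.09 in shLuc. Its mean level stood at the 97.9th percentile of the table and the groups overlapped. Over the 3 probe sets the differences from shLuc ranged from -0.12 to -0.08 in shApela_1 and from -0.04 to -0.02 in shApela_2. Free of overlap were 0 of the 3 in either comparison. Among all probe sets with 1 symbol the shares were 13.5% with shApela_1 and 10.4% with shApela_2. The Tdpoz and Zscan4 differences had opposite signs with shApela_1, and the contrast between the families was not tested.

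**Figure D2:**
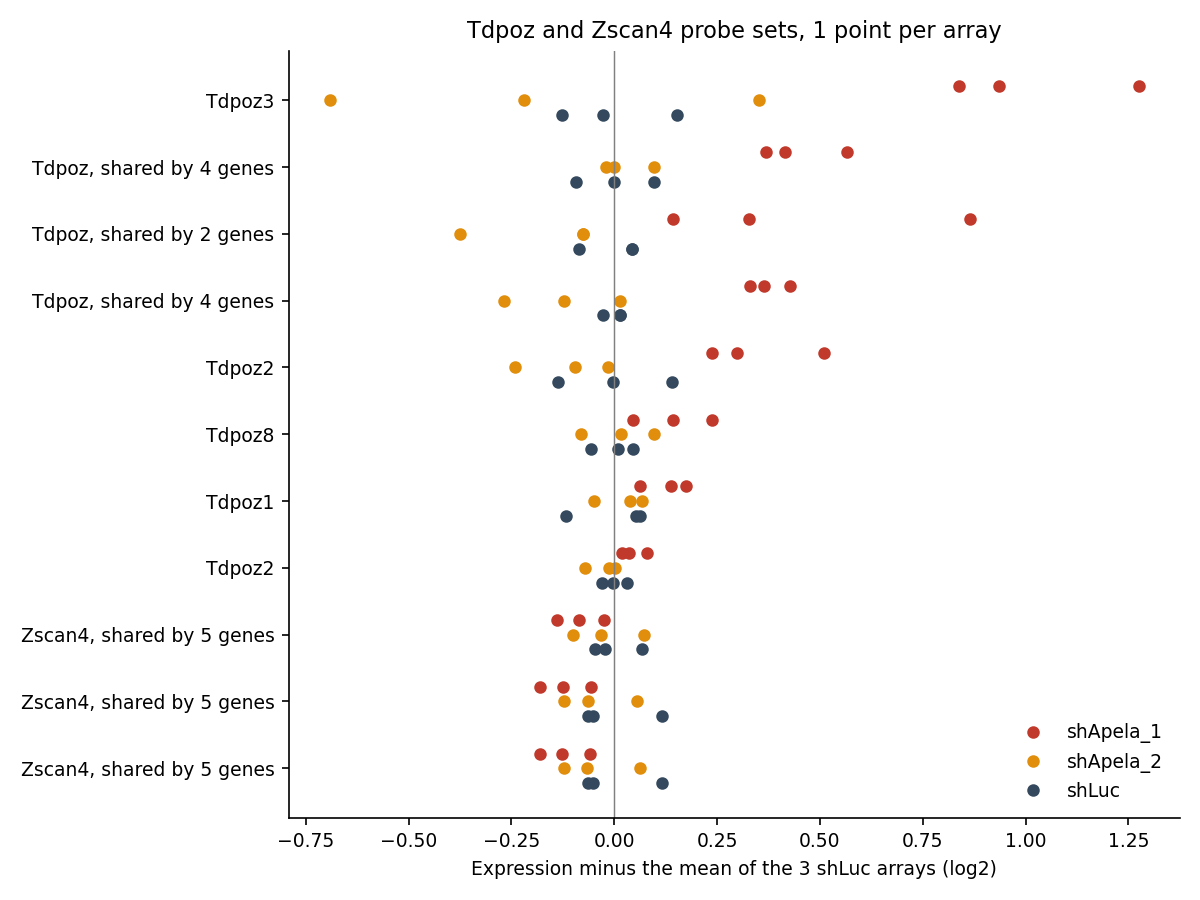
Expression of each distinct Tdpoz and Zscan4 probe set minus its mean over the 3 shLuc arrays (log2, horizontal axis), with 1 point per array coloured by shApela_1, shApela_2 and shLuc. The Tdpoz3 points of shApela_1 lie farthest to the right, and the Zscan4 points of the 3 groups overlap around 0.

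The Tdpoz genes lie together on chromosome 3, and their neighbours gave a local comparison. RefSeq order places 8 Tdpoz genes in a span of 37 genes. Compared were the 10 nearest measured genes on each side of Tdpoz3 that do not carry a Tdpoz symbol, with 23 probe sets. They were set apart by symbol alone, and whether any, such as Spopfm2, is related to the Tdpoz genes was not checked. Their median difference was 0.02 with shApela_1, from -0.12 to 0.23. In limma 0 of the 23 passed the test with shApela_1, beside 0.308% of all probe sets. At an unadjusted p under 0.05 were 4, beside 7.56% of all probe sets. They were 3 Spopfm2 probe sets, which hold equal values, and that of S100a10. Groups did not overlap for 5 of the 23 in the higher direction, beside 7.88% of all probe sets, and for 1, Rptn, in the lower direction, beside 5.64%. In the higher direction 3 of the 5 were probe sets of Spopfm2 with equal values, 0.21 above shLuc (adjusted p = 0.403). Spopfm2 is also 1 of the 14 genes whose upstream window holds the run ACACACCTTTAATCC. Of those 14 genes 5 had a probe set of their own: besides Spopfm2 (0.21), Tdpoz1 (0.13), Tdpoz8 (0.14) and Zfp352 (0.05), Eif4a3l1 measured -0.01 with shApela_1. With shApela_2 the same differences were 0.03 for Spopfm2, 0.02 for Tdpoz1, 0.01 for Tdpoz8, -0.10 for Zfp352 and -0.29 for Eif4a3l1.

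**Figure D3:**
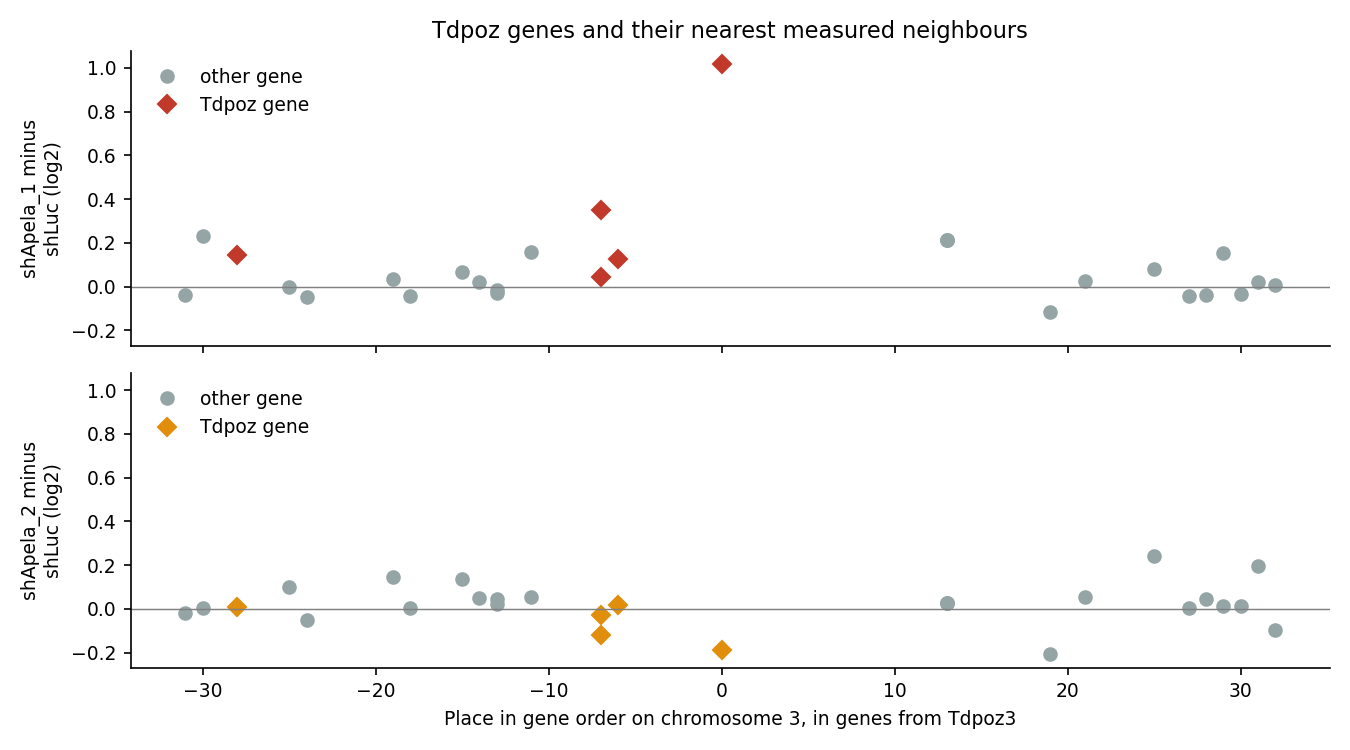
Difference of group means from shLuc (log2, vertical axis) for shApela_1 in the upper and shApela_2 in the lower panel, against place in gene order on chromosome 3 counted from Tdpoz3. Tdpoz3 stands at 1.02 in the upper panel, where the neighbouring genes lie between -0.12 and 0.23.

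In a list of further transcripts of the two-cell-like state, none passed the threshold with shApela_1 or with shApela_2. For this list and the next 3, the counts at an unadjusted p under 0.05 stand beside 7.56% of all probe sets with shApela_1 and 5.9% with shApela_2, and the counts of signs beside 53.8% and 56.3% of all probe sets above shLuc. The list held 41 names, of which 19 genes with 21 probe sets were measured under their own symbol. With shApela_1, 0 of the 21 passed in limma in either direction and 2 had an unadjusted p under 0.05, where 0.308% of all probe sets passed (0.115% higher, 0.193% lower); 12 were higher and 9 lower, with a median of 0.00. The largest differences were those of Tdpoz2, given above, and of Ddit4l, a stress-responsive inhibitor of mTOR signalling, at 8.67 ± 0.02 in shApela_1 and 8.47 ± 0.04 in shLuc (0.21, adjusted p = 0.181, and 0.0462 without the third shApela_2 array). On the lower side were Gm5662 (-0.20) and P4ha2, a prolyl hydroxylase subunit (-0.16), each with adjusted p = 1, and P4ha2 differed by -0.03 without the second shLuc array. With shApela_2, 0 of the 21 passed and 1 had an unadjusted p under 0.05; 5 were higher and 16 lower, with a median of -0.05. Arg2, the mitochondrial arginase, measured 7.57 ± 0.14 in shApela_2 and 7.87 ± 0.13 in shLuc (-0.30, adjusted p = 0.68). Usp17la, a deubiquitinase gene, differed by -0.25 (adjusted p = 0.78), and by 0.07 without the third shApela_2 array (adjusted p = 0.981). AF067061 differed by -0.21 (adjusted p = 0.68) and Gm5662 by -0.13 (adjusted p = 0.771).

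Activators of the two-cell programme did not pass either. Of 11 measured genes with 16 probe sets, 0 passed limma's test with shApela_1 (5 at an unadjusted p under 0.05), and 13 probe sets were lower, with a median of -0.07. The largest differences were those of Dppa3, a maternal factor that protects DNA methylation in the zygote, whose 2 probe sets differed by -0.35 (adjusted p = 0.153) and -0.34 (adjusted p = 0.198). Dppa2, which with Dppa4 is known to act upstream of Dux, measured 10.42 ± 0.12 in shApela_1 and 10.64 ± 0.04 in shLuc on 1 of its probe sets (-0.22, adjusted p = 0.385). A brighter Dppa2 probe set differed by -0.09 with overlapping groups (limma adjusted p = 0.834). Top2a, a topoisomerase, differed by -0.22 (adjusted p = 0.258), and Smarca5, a chromatin remodeller, by -0.16 (adjusted p = 0.546). With shApela_2, 0 passed (1 at an unadjusted p under 0.05) and the median was -0.05. There a dim second probe set of Top2a differed by -0.18 (adjusted p = 0.698), Smarca5 by -0.17 (adjusted p = 0.68), Dppa3 by -0.10 (adjusted p = 0.701) and Zfp217, a zinc finger protein, by -0.09 (adjusted p = 0.697). On its brighter probe set Top2a differed by -0.05 with shApela_2 (limma adjusted p = 0.765). Dux had no probe set of its own and was not analysed here.

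Repressors of the programme were bright, with 0 of 50 probe sets below the median level of the table, and most differed little. Among 36 measured genes, 0 of the 50 probe sets passed limma's test with shApela_1 (3 at an unadjusted p under 0.05), and 32 probe sets were lower, with a median of -0.02. Lin28a, which binds RNA and restrains the maturation of let-7 microRNAs, measured 9.75, 9.70 and 9.85 in shApela_1, 10.20, 10.17 and 10.43 in shApela_2, and 10.16, 10.17 and 10.31 in shLuc. All shApela_1 arrays lay below the rest. The difference from shLuc was -0.44 (adjusted p = 0.067). In a fit blocked by replicate number its adjusted p was 0.0129, without dim probe sets 0.0455, and without the third shApela_2 array 0.0194. Without any other single array it lay between 0.0916 and 0.309. Rif1, a telomere-associated protein and repressor of Zscan4, differed by -0.25 (adjusted p = 0.127, and 0.0281 without the third shApela_2 array), and Smchd1, a structural maintenance protein of silent chromatin, by -0.22 on both probe sets (adjusted p = 0.551 and 0.746). Mga, a subunit of a Polycomb-type repressor complex, differed by -0.10 (adjusted p = 0.778). With shApela_2, 0 of the 50 passed (4 at an unadjusted p under 0.05, all of them of Cbx3 or Atf7ip), with a median of -0.02. There Smchd1 differed by -0.19 and Atf7ip, a partner of Setdb1, by 0.17 (adjusted p = 0.68 for each). L3mbtl2, a Polycomb-group protein, differed by 0.16 (adjusted p = 0.696), and Cbx3, a heterochromatin protein, by -0.16 (adjusted p = 0.68). This Cbx3 value is that of probe sets with equal values on every array. Its other probe sets differed by -0.15 to -0.05, and the brightest of them by -0.08. On a brighter Atf7ip probe set every shApela_2 array lay above shLuc, by 0.13 on average (limma unadjusted p = 0.00609, adjusted p = 0.68).

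Genes of telomeres and meiotic recombination, with which Zscan4 is often studied, held the largest single difference of the 4 lists. Of 11 measured genes, 0 passed limma's test with shApela_1 (1 at an unadjusted p under 0.05), and the median was -0.03. Smc1b, a cohesin subunit of meiotic chromosomes, measured 7.12, 7.27 and 7.21 in shApela_1, 8.50, 8.92 and 8.20 in shApela_2, and 8.11, 8.40 and 8.13 in shLuc. The shApela_1 arrays lay below all others, and the other groups overlapped. Its shApela_1 difference of -1.01 missed the threshold over all probe sets (adjusted p = 0.0504). It passed in 6 other settings on all arrays of the comparison, from 0.0199 in the fit blocked by replicate number to 0.0494 with the brightest probe set of each gene, and without the second or the third shApela_2 array (0.026 and 0.0191). Without any other single array the adjusted p lay between 0.0969 and 0.255, and with centred medians it was 0.074. With shApela_2, 0 of the 11 passed (0 at an unadjusted p under 0.05), and Smc1b differed by 0.33 (adjusted p = 0.68). With shApela_1, Rad50, a subunit of the DNA repair complex MRN, differed by -0.16 (adjusted p = 0.84), the meiotic recombinase Dmc1 by -0.14 (adjusted p = 1) and the telomere protein Terf1 by -0.09 (adjusted p = 0.739). With shApela_2, the telomere proteins Pot1a and Terf2ip differed by -0.12 and -0.11 (adjusted p = 0.68 for each), and Dmc1 by -0.08 (adjusted p = 0.851).

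Between the hairpins, 0.896% of all probe sets passed (0.331% higher, 0.565% lower), and 2 genes of these lists were among them. Smc1b was higher in shApela_2 than in shApela_1 by 1.34 (limma adjusted p = 0.0122), and so was Lin28a by 0.50 (adjusted p = 0.0273). Ddit4l differed by -0.26 and just missed the threshold (adjusted p = 0.0507). The Smc1b call ended without the first or the second shApela_1 array (adjusted p = 0.0671 and 0.0685) and in a fit of only the arrays compared (0.0726). The Lin28a call ended in that fit (0.115) and without any 1 array other than the third of shLuc or of shApela_2 (adjusted p from 0.056 to 0.132).

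**Figure D4:**
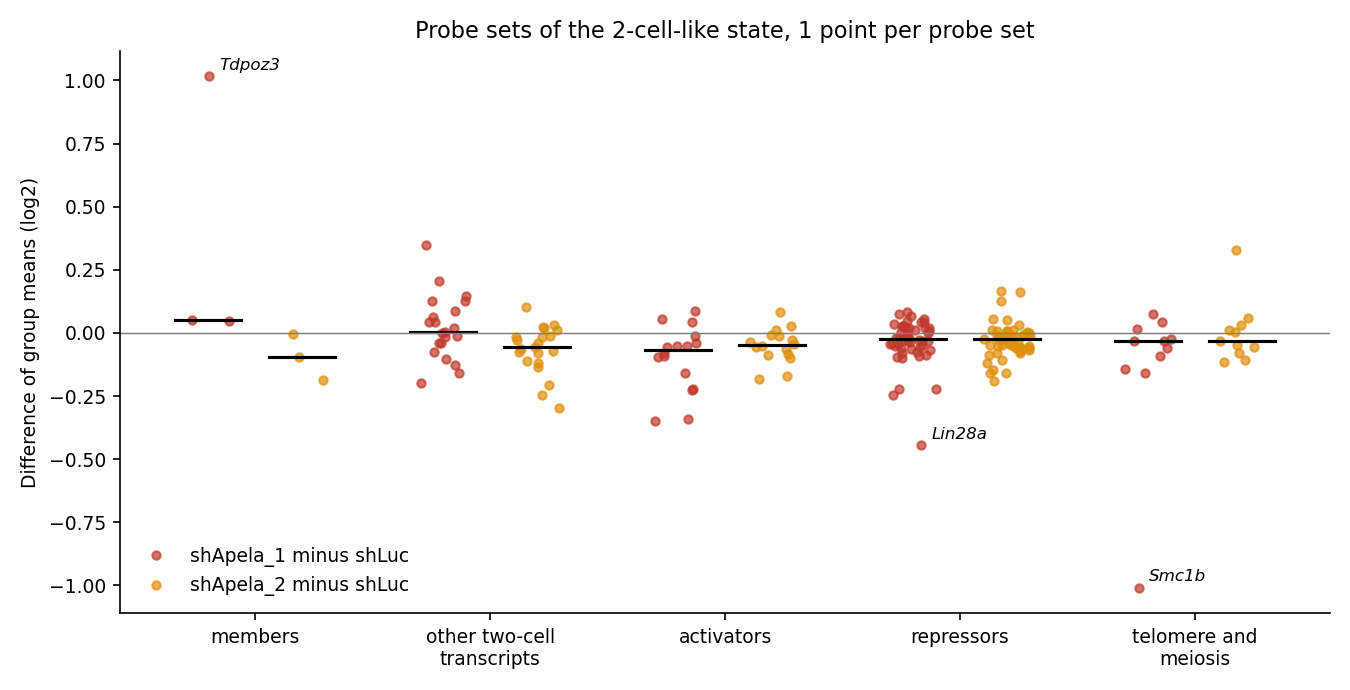
Difference of group means from shLuc (log2, vertical axis), 1 point per probe set, for shApela_1 and shApela_2, in the members and the 4 lists of related genes, with black lines at the medians. Tdpoz3 at 1.02 and Smc1b at -1.01 with shApela_1 stand farthest from 0, and the medians of the 4 lists lie between -0.07 and 0.00.

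By Pearson's r over the 9 arrays, the probe sets most like Tdpoz3 were those of Rerg (0.993), Macir (0.981), Sos2 (0.980), Tmem263 (0.972) and Ndn (0.967), among 2975 that ranged over at least 0.5 log2 units. Having been picked by this measure, they share the order of the groups with Tdpoz3 by construction. Rerg, a Ras-like GTPase gene, measured 7.70 ± 0.04 in shApela_1, 7.34 ± 0.13 in shApela_2 and 7.40 ± 0.06 in shLuc. On the same measure Tcstv3 had an r of 0.616 with Tdpoz3 and Zfp352 of 0.022, where all 9 Tcstv3 values lie within 0.14 of each other and 4 are equal. The probe sets most like the mean of the centred members, which Tdpoz3 dominates by its range, were those of Fsd1l (0.972), Glcci1 (0.971), Tdpoz2 (0.957), Rab31 (0.956) and Rpl10l (0.954). The 9 arrays share groups and array numbers, and the coefficients are descriptions.

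Markers of embryonic stem cells were all bright, with 0 of 10 below the median level of the table, and their summed signal, in units of 1000 on the linear scale, lay between 37.4 and 37.9 in shApela_1, 37.9 and 39.2 in shApela_2, and 38.3 and 38.7 in shLuc. Oocyte markers, of which 10 of 12 lay below the median level, summed to between 2.96 and 3.02 in shApela_1, 3.04 and 3.29 in shApela_2, and 2.70 and 3.01 in shLuc. Most of this sum was 1 gene, Ooep, with log2 means of 11.19 in shApela_1, 11.30 in shApela_2 and 11.13 in shLuc. Zp3, the other above the median, had means of 7.88, 7.65 and 7.65 in the same order. Trophectoderm markers (4 of 10 below the median) summed to between 2.39 and 3.09 in shApela_1, 2.62 and 3.43 in shApela_2, and 2.97 and 3.58 in shLuc. Primitive endoderm markers (4 of 9 probe sets below it) summed to between 1.32 and 1.51 in shApela_1, 1.31 and 1.36 in shApela_2, and 1.31 and 1.36 in shLuc, and fibroblast markers (4 of 9) to between 0.989 and 1.09 in shApela_1, 1.08 and 1.19 in shApela_2, and 1.02 and 1.09 in shLuc. In these marker lists 0 probe sets passed limma's test with either hairpin, beside 0.308% of all probe sets with shApela_1 and 0.0138% with shApela_2. At an unadjusted p under 0.05 were 5 for shApela_1, beside 7.56% of all probe sets, and 3 for shApela_2, beside 5.9%. No marker is at 0 on this scale, and the part of these cell types in the Tdpoz3 values was not tested.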

How the data were processed

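Total RNA from 9 samples in 3 groups of 3 was measured on Affymetrix arrays. The deposited table holds log2 expression values. Per the submitters' processing notes, the authors used RMA and Partek 6.6. RMA corrects background and quantile-normalizes the arrays before it summarises probes, which can compress small differences. Its settings and the log base are not stated, and the values' span fits base 2. Scanner intensities were not used. Precision is limited by having 3 arrays in a group.

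Of 28853 probe sets, GEO's platform annotation gave 21775 a single gene symbol, 1578 several and 5500 none. The first kind entered limma 3.58.1 under R 4.3.3 (lmFit, then eBayes, two-sided), in 1 fit of 9 arrays, with Benjamini-Hochberg adjustment over all 21775 and a threshold of 0.05. Shared Tdpoz and Zscan4 probe sets were described at family level without tests. Groups and replicate numbers came from the sample titles. Deviations of same-numbered arrays from their group means correlated at 0.43, 0.40 and 0.67 for shApela_1 with shLuc and at 0.17, 0.21 and 0.19 for shApela_2 with shApela_1, so numbers were taken to pair those groups, from the data alone; for shApela_2 with shLuc they were 0.00, 0.67 and 0.47, which did not meet the minimum of 0.1 for each pair. The main fit used no pairing and held no term for replicate number, which entered only an alternative fit. The test was checked on simulated data.

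The members and lists were chosen with earlier results of these data known. The text names all members, every listed gene past the threshold, and up to 4 of the largest differences per list and hairpin. Chromosome 3 neighbours, the 15-base run, the family-level values and the fit without the third array of each group were added after seeing the data. Sequences and gene order came from RefSeq, GRCm38.p6, and were aligned with Biopython 1.88; the sources used here do not name the array's own genome build.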

Additional observations from a re-analysis of the deposited data

How the results depend on the processing

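The shApela_1 difference of Tdpoz3, which chose the gene, ranged from 0.89 to 1.11 without single arrays. That of Zfp352 ranged from -0.16 to 0.23. For shApela_2 against shLuc, adjusted p stayed between 0.421 and 1 for Tdpoz3, 0.731 and 0.967 for Zfp352 and 0.726 and 0.997 for Tcstv3. Signs turned for Tdpoz3 without the third shApela_2 array (0.0664) or without the third array of every group (0.0027, an alternative chosen after seeing the data), for Zfp352 without the third shLuc array (0.0823) or the third of every group (0.0819), and for Tcstv3 without single arrays (0.0057, 0.0057, 0.0094 and 0.0026). Without single arrays the shApela_2 differences ranged from -0.4553 to 0.0664 for Tdpoz3, from -0.2147 to 0.0823 for Zfp352, from -0.0235 to 0.0094 for Tcstv3, from -0.2811 to 0.0765 for Gm5662, from -0.6085 to 0.0671 for Usp17la, from -0.2984 to 0.0083 for Top2a and from -0.2202 to 0.0589 for Dmc1. The highest values of the last 4 genes came without the third shApela_2 array; signs also turned without the second shLuc array for Dmc1 (0.0219) and without the third of every group for Gm5662 (0.0630) and Zfp217 (0.0092).

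The 67 calls with shApela_1 (25 higher, 42 lower) became 175 under the replicate block, 107 (30 and 77) when quantile-normalized again, 35 (10 and 25) with centred medians, 44 with an intensity trend and robust prior, 273 without the third of every group, and 1 (without the second shApela_1 array) to 154 (without the third of shApela_2) without single arrays, each of which moved it by over 1.5 times. The 3 calls with shApela_2 became 5 with the block, 7 after the second normalization and 2 to 6 without single arrays, the highest without the third of shApela_2. The 195 between the hairpins (72 higher, 123 lower) became 676 with the block, 27 with only the arrays compared, 467 without the third of every group, and 12 (without the second shApela_1 array) to 229 (without the third of shApela_2) without single arrays, and split into 140 and 132 after the second normalization and 42 and 141 with centred medians. Regulators called with shApela_1, 0 on all arrays, became 2 with the block, 2 without dim probe sets, 2 without the third of every group, 1 after the second normalization, 1 with the trend, 1 with the brightest probe sets, 1 with only the arrays compared, and 0 to 3 without single arrays; they were Smc1b, Lin28a and Rif1. Other two-cell transcripts ranged from 0 to 1. Among the named genes followed under the block, no other call changed. Between the hairpins only Smc1b and Lin28a of the lists were followed, so changes there in other listed genes were not checked. The cause of these changes was not tested. Tcstv3 was left out by the filter on dim probe sets.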
